A study of Mus musculus with 12 samples.

Results

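The genes described here are 5 uptake transporters of organic anions and thyroid hormone: Slco1c1, Slco1a4 and Slco2b1 of the Slco family, and Slc22a6 and Slc22a8 of the Slc22 family. They are 5 of the 23983 entries in each deposited table, and each was found under its own symbol in both tables and was tested there. They were named in advance, partly because several stand among the changed genes of both tables. Their differences between genotypes chose them and are therefore given as a description. The WT levels enter those differences, and the lists of other genes were also chosen with earlier results of these data known.

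The data are RNA-seq of 12 brain libraries from mice at postnatal day 0, in 4 groups of 3: cortex of wild-type (WT) mice, subcortex of WT mice, cortex of mice that lack Reck in vessels (vKO), and subcortex of vKO mice. All groups are of mixed strain, and no allele or agent common to WT and vKO is named. The vKO genotype is written as Reck flex2/Δex1 with Tie2Cre. Reck is a cell-surface partner of Gpr124 in the response of brain endothelial cells to Wnt7a and Wnt7b. Tie2Cre acts in endothelial and blood lineages, so the model is not limited to vessels of the brain, and the tissue was not sorted. The values are 1 FPKM per gene and group (fragments scaled by transcript length and library size), made by the authors from the replicates, so no spread between replicates, no interval and no depth can be given for any value below.

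The FPKM of Reck itself was 2.91 (WT) and 3.23 (vKO) in cortex, 2.37 and 3.49 in subcortex. A whole-gene value in whole tissue does not check the deletion of part of the gene by Tie2Cre in part of the cells. The Δex1 allele of vKO is written as already deleted, so vKO cells outside the Tie2Cre lineages may also differ from WT in Reck. Of 4 regional markers, Tbr1 and Neurod6 of cortical neurons were at 29.0 and 98.3 FPKM in WT cortex and at 0.537 and 6.61 in WT subcortex. Tcf7l2 and Gbx2 of thalamus were at 4.71 and 0.763 in WT cortex and at 37.0 and 5.73 in WT subcortex. In vKO cortex Tbr1 and Neurod6 were at 22.2 and 168 FPKM, and Tcf7l2 and Gbx2 at 1.07 and 0.453. The authors' deposited table calls Neurod6 higher and Tcf7l2 lower in vKO cortex, both at a q-value of 0.000806. In vKO subcortex the markers were at 0.687, 6.08, 33.2 and 7.26 FPKM in the same order, and none was called. A part of regional make-up in the cortex differences was not tested. Xist, RNA of the inactive X chromosome, had 0.0417 FPKM (WT) and 18.6 (vKO) in cortex, 0.0369 and 10.2 in subcortex. The Y-linked Eif2s3y had 30.4 FPKM (WT) and 15.8 (vKO) in cortex, 27.6 and 13.3 in subcortex, so its RNA was present in all 4 groups. The labels give no sex, so what of the differences below goes with the sex of the animals and what with their genotype cannot be told apart in either tissue.

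Transporters of the Slco family (organic anion transporting polypeptides) carry bile acids, steroid conjugates, thyroid hormones and drugs across cell membranes without sodium. Slco1c1 has a high affinity for thyroxine and is known from brain capillaries and choroid plexus. Slc22a6 (Oat1) and Slc22a8 (Oat3) exchange organic anions for dicarboxylates. Both are best known from kidney, and Slc22a8 also clears anions such as neurotransmitter metabolites from the brain at the capillary wall and the choroid plexus.

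Sequence just before and after the annotated start is shown for the genes that moved in both tissues, Slco1c1, Slc22a8 and Slc22a6, and for Slco1a4, the neighbour of Slco1c1 that did not. Each window runs from 250 bases before to 50 bases after the start and comes from RefSeq on GRCm38.p6, the assembly also called mm10. All 5 genes matched by symbol, with 3 start sites listed for Slco2b1. The RefSeq start of Slc22a8 lies inside the span that the deposited tables give for the gene. The motif was chosen after its letters had been seen in the Slco1c1 window. Capitals mark heptamers of TCF/LEF, the DNA-binding partners of beta-catenin in Wnt signalling, searched on either strand. The letters searched were CTTTGAA as the first variant, CTTTGAT as the second, CTTTGTA as the third and CTTTGTT as the last. Seen from the opposite strand, CTTTGTT reads AACAAAG, letters that factors of the SOX family also bind.
Slco1c1, plus strand, chr6:141524104-141524403: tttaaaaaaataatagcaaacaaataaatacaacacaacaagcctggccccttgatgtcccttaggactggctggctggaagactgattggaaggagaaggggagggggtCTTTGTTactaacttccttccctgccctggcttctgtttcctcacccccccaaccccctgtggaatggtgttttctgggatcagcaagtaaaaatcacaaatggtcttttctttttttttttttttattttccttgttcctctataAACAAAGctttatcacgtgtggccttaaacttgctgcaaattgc
Slco1a4, minus strand, chr6:141856171-141856470: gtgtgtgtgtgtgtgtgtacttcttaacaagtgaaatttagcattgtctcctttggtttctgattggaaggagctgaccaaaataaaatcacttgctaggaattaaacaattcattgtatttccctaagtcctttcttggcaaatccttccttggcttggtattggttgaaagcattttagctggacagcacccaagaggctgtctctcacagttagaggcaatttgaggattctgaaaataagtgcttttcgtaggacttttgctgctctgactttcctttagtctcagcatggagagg
Slc22a8, plus strand, chr19:8592932-8593231: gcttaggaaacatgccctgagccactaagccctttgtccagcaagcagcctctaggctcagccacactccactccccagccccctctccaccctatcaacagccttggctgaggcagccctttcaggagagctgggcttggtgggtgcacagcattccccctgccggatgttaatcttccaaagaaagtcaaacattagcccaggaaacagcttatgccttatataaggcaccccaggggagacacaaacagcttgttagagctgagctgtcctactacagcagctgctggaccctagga
Slc22a6, plus strand, chr19:8617746-8618045: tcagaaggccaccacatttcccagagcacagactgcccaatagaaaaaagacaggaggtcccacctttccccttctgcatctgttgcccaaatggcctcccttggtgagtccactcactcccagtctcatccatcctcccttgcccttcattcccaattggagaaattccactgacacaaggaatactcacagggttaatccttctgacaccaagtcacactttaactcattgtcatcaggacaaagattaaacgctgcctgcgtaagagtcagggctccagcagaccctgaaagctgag
The Slco1c1 window holds 2 of these heptamers, CTTTGTT with its first base at position -140 from the start and AACAAAG with its first base at position 7. At least 1 heptamer occurs in 16.9% of the 32851 RefSeq windows of this length, and at least 2 occur in 1.94%. The other members' windows, including those of Slco2b1, hold none of these letters. A match is a description of the sequence, not a binding site.

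In WT brain Slco1c1 had the highest FPKM of the 5 and Slco1a4 the lowest, in both tissues. FPKM is scaled by transcript length, so levels can be set side by side between genes. In WT cortex the order was Slco1c1 at 14.2 FPKM, Slc22a8 at 3.55, Slc22a6 at 3.27, Slco2b1 at 2.90 and Slco1a4 at 1.07. In WT subcortex it was Slco1c1 at 10.7 FPKM, Slc22a8 at 2.97, Slco2b1 at 2.34, Slc22a6 at 1.91 and Slco1a4 at 0.854. Slco1c1 made up 56.9% of the summed FPKM of the 5 in WT cortex and 56.9% in WT subcortex. Without replicate values no pair of neighbours in either order can be called different. Slc22a6 and Slc22a8 lay closest in WT cortex, at a ratio of 1.09.

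All 5 had a higher FPKM in WT cortex than in WT subcortex, though the tables were normalized separately and no test was possible. On the scale log2((FPKM + 1) of cortex over subcortex) the WT differences ran from 0.16 for Slco1a4, through 0.20 for Slc22a8, 0.22 for Slco2b1 and 0.38 for Slco1c1, to 0.55 for Slc22a6. Over the 13167 genes tested in both tables the median of this difference was -0.05 and the 5th and 95th percentiles were -0.84 and 0.70, a range that holds all 5. In vKO brain the differences were 1.45 for Slco1c1, 0.48 for Slc22a6, -0.09 for Slc22a8, -0.34 for Slco1a4 and -0.40 for Slco2b1. The WT and vKO levels both enter the contrast that helped to choose the members, so these values are a description.

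**Figure D1:**
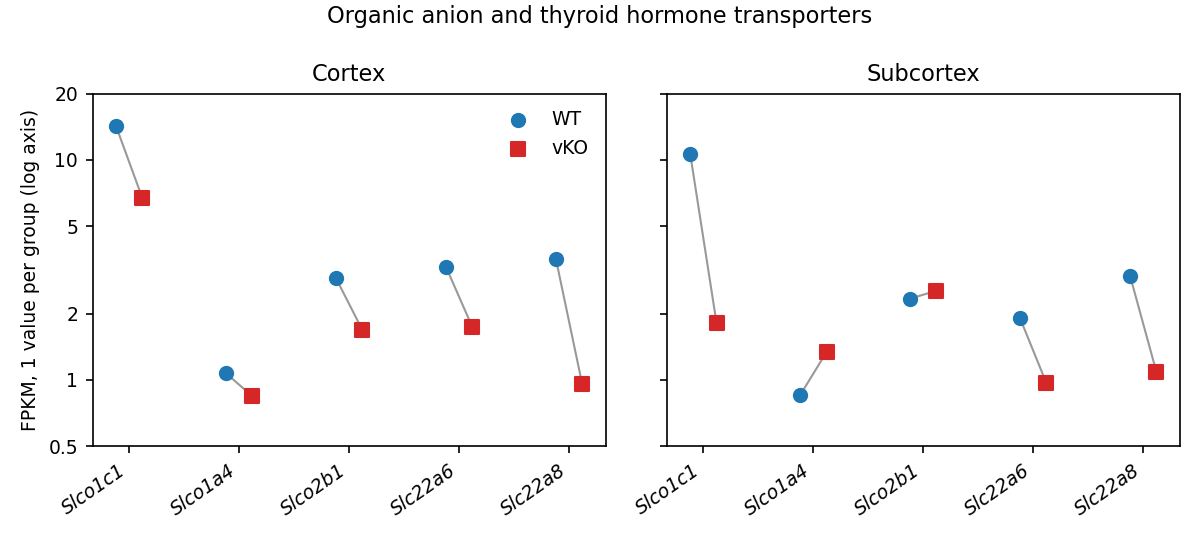
FPKM of the 5 transporters (log axis) in WT (circles) and vKO (squares), 1 value per group made by the authors, with cortex on the left and subcortex on the right. In cortex all 5 squares lie below their circles, and in subcortex Slco1a4 and Slco2b1 lie above theirs.

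In cortex the FPKM of all 5 was lower in vKO, and the authors' deposited table called 4 of the 5 lower at a q-value under 0.05 and none higher. Of all tested genes 19.5% were called, 11.3% lower and 8.15% higher in vKO, and since this contrast helped to choose the members nothing is read from their count. At a q-value under 0.01 the shares were 7.28% lower and 4.01% higher, and with a change of at least 1.5-fold at 0.05 they were 6.83% and 4.35%. Changes are given as log2((vKO FPKM + 1)/(WT FPKM + 1)), in which the added 1 shrinks the change of low genes. Slc22a8 (chromosome 19, 8591254 to 8611835 in mm10) went from 3.55 to 0.955 FPKM, 26.9% of WT, with a log2 ratio of -1.22. Of the 1537 genes called lower in the authors' deposited table, it ranked 11 from the lowest by this log2 ratio. By the ratio of FPKM without a pseudocount it ranked 5. By log2 ratio Slco1c1 ranked 64, Slc22a6 471 and Slco2b1 771 of these 1537 genes, and without a pseudocount 125, 276 and 458. The ranks come from the contrast that helped to choose the members.

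Slco1c1 (chromosome 6, 141524386 to 141570177) went from 14.2 to 6.70 FPKM in cortex, 47.0% of WT, with a log2 ratio of -0.99. Its level fell by 7.54 FPKM, the largest amount of the 5. For both genes the authors' deposited table lists a q-value of 0.000806, its lowest for cortex. Slc22a6 (chromosome 19, 8617996 to 8628299) stood at the same q-value in the authors' deposited table and went from 3.27 to 1.74 FPKM, 53.2% of WT (-0.64).

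Slco2b1 (chromosome 7, 99657804 to 99711340), an anion carrier with a broad tissue distribution that microglia also express, went from 2.90 to 1.69 FPKM in cortex, 58.2% of WT (-0.54). In the authors' deposited table its q-value was 0.00202. Slco1a4 (chromosome 6, 141805440 to 141856171), a carrier of bile acids, steroid conjugates and digoxin on brain capillaries, was not called. Its cortex levels were 1.07 FPKM (WT) and 0.844 (vKO), a log2 ratio of -0.17, and the authors' deposited table lists a q-value of 0.386.

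In subcortex Slco1c1, Slc22a8 and Slc22a6 were again called lower in the authors' deposited table, 3 of the 5, and none was called higher. Of all tested genes 0.714% were called there, and 0.262% were lower calls in vKO. This count too follows from how the members were chosen. Slco1c1 went from 10.7 to 1.82 FPKM, 17.0% of WT, with a log2 ratio of -2.05. Of the 36 genes called lower in the authors' deposited table, it ranked 2 from the lowest by log2 ratio and 3 by the ratio without a pseudocount. Slc22a8 ranked 18 and 8 by these measures, and Slc22a6 ranked 34 and 25. The level of Slco1c1 passed from the highest of the 5 in WT to number 2 in vKO, below Slco2b1.

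Slc22a8 went from 2.97 to 1.09 FPKM in subcortex, 36.6% of WT (-0.93), and, like Slco1c1, has the lowest q-value that the authors' deposited table lists for subcortex, 0.0104. Slc22a6 went from 1.91 to 0.966 FPKM, 50.7% of WT (-0.56), and the authors' deposited table lists its q-value as 0.0264. Slco2b1 was not called, with 2.34 FPKM in WT and 2.54 in vKO (0.08). Slco1a4 was not called either, with 0.854 FPKM in WT and 1.34 in vKO (0.33), and the authors' deposited table lists a p-value of 0.0163 and a q-value of 0.513.

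The changes of the members in the tissues are set side by side here. Slco1c1 kept 47.0% of its WT level in cortex and 17.0% in subcortex. Slc22a8 kept 26.9% and 36.6%, and Slc22a6 kept 53.2% and 50.7%. Slco1a4 stood at 78.6% of WT in cortex and 157% in subcortex, and Slco2b1 at 58.2% and 109%. Some of these levels lay near the floor of tested genes. In WT, Slco1a4 was at percentile 2.80 in cortex and 0.946 in subcortex. In vKO cortex, Slco1a4 was at percentile 1.83 and Slc22a8 at 2.43. In vKO subcortex, Slc22a6 was at percentile 1.33 and Slc22a8 at 2.42. The difference of these changes between the tissues could not be tested, since the files used here give no values per replicate. Summed over the 5, the level went from 25.0 to 11.9 FPKM in cortex and from 18.8 to 7.75 in subcortex, and the share held by Slco1c1 was 56.2% in vKO cortex and 23.4% in vKO subcortex.

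**Figure D2:**
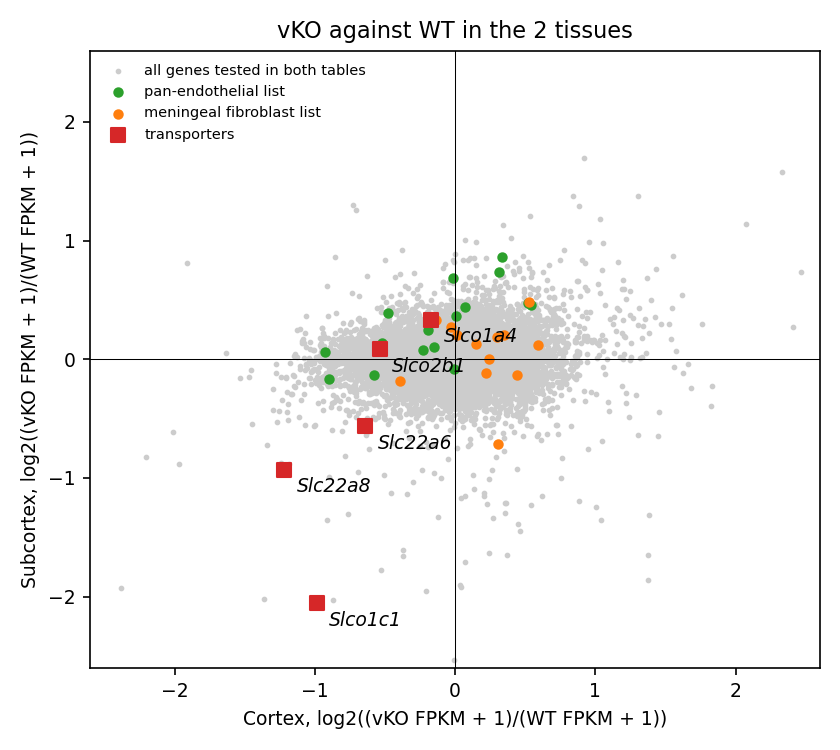
Log2 ratio of vKO over WT (1 added to each FPKM) in cortex (horizontal) and subcortex (vertical) for 13131 genes tested in both tables, with 36 more beyond the axes. Squares are the 5 transporters and coloured points the endothelial and meningeal lists. Slco1c1, Slc22a8 and Slc22a6 lie in the lower left, while Slco1a4 and Slco2b1 lie above 0 in subcortex.

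The members form 2 neighbouring pairs in the genome. Slc22a8 and Slc22a6 lie 6160 bases apart on chromosome 19, both on the plus strand, and both were called lower in both tissues in the authors' deposited table. Slc22a8 per Slc22a6 went from 1.09 to 0.549 in cortex and from 1.56 to 1.13 in subcortex. Slco1c1 and Slco1a4 lie 235262 bases apart on chromosome 6, on opposite strands, with Slco1b2, a carrier of liver, between them at 0.0214 FPKM or less in WT. Slco1c1 per Slco1a4 went from 13.3 to 7.94 in cortex and from 12.5 to 1.36 in subcortex. Pde3a, a phosphodiesterase gene on the other side of Slco1c1, had log2 ratios of -0.06 in cortex and 0.06 in subcortex and was called in neither table of the authors. Beyond the Slc22 pair, the next tested gene is Chrm1, a muscarinic receptor gene, which the authors' deposited table calls lower in cortex, from 5.77 to 3.19 FPKM (-0.69), and which was too low for the test in subcortex. These neighbours were picked by position after the values were seen.

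The transcripts share little sequence with other genes. Of the words of 50 bases in the longest coding transcript, 2.73% of those of Slco1a4 also occur in transcripts of other genes, among them Slco1a1, Slco1a5 and Slco1a6. The share was 0.53% for Slc22a8 and 0 for Slco1c1, Slco2b1 and Slc22a6. Slco1a1, Slco1a5 and Slco1a6 were themselves at 0.293 FPKM or less in every group.

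The genes whose profile over the 4 groups came closest to each member were found by the distance between log2(FPKM + 1) values centred on each gene's mean, over 4 values. Slco1a4 lay closest to Fam214a, Col1a2 and Sema4b, at distances of 0.01 to 0.03. Slco2b1 lay closest to Pacs1, Kirrel and Fbxl17, at 0.03 to 0.04. Slc22a6 lay at 0.17 to 0.22 from Aim2, Marcksl1-ps4 and Zfhx2os. Slc22a8 lay at 0.17 from Pglyrp1, and at 0.30 from Atn1 and from Ly75, an endocytic receptor that both of the authors' deposited tables call lower. For Slco1c1 the closest were Rpl26 at 0.27 and the small RNA genes Scarna3b and Rnu73b, both at 0.82, none of them called in the authors' deposited tables. Rpl26 was low, at 4.87 FPKM (WT) and 1.28 (vKO) in cortex, and at 3.05 and 0 in subcortex. Between members, Slco1a4 and Slco2b1 were closest, at 0.31, and Slco1c1 and Slco1a4 farthest apart, at 2.05.

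Called endothelial markers went both ways in cortex, and in subcortex 3 were called higher and the other 13 were not called. In whole tissue, fewer cells of a type and less RNA per cell cannot be told apart. Of 16 genes of endothelial cells of all beds, the authors' deposited table calls 4 lower and 2 higher in cortex, with a median log2 ratio of -0.08 beside 0.00 over all tested genes. Cldn5, a tight junction gene included in this list, fell from 46.8 to 24.6 FPKM and Kdr, a VEGF receptor, from 10.98 to 5.30. In subcortex none was called lower, and the median was 0.31 beside -0.00 over all tested genes. Cldn5, Flt1 and Erg had ratios below 0 there, at -0.16, -0.13 and -0.08. Pecam1, an endothelial adhesion molecule, rose there from 5.12 to 10.1 FPKM, and Cdh5, the cadherin of endothelial junctions, from 3.62 to 6.45. Their summed level went from 130 to 105 FPKM in cortex and from 107 to 125 in subcortex, and none was listed at 0. Without Cldn5, the most abundant, the other 15 summed to 83.3 and 80.7 FPKM in cortex and to 64.7 and 87.5 in subcortex.

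Divided by each of the 16 endothelial genes in turn, Slco1c1 in vKO cortex was between 29.5% (against Clec14a) and 97.4% (against Kdr) of its WT value, with a median of 50.3%. In subcortex it was between 6.91% and 19.4%, with a median of 13.0%. Slc22a8 was at a median of 28.8% in cortex and 27.8% in subcortex, and was below WT against all 16 genes in both. For Slc22a6 the medians were 56.9% and 38.6%, with 14 and 16 of the 16 ratios below WT. Slco2b1 per endothelial gene was below WT in 13 of 16 ratios in cortex and 11 in subcortex, where the median was 82.7%. Slco1a4 was below WT in 11 of 16 ratios in cortex (median 84.1%) and in 3 in subcortex (median 119%). These ratios carry over any change of the endothelial genes themselves. All 16 ratios of a member also share that member's own change, which helped to choose it, so their counts are a description and not separate results.

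Markers of meninges, choroid plexus and glia, where some of these transporters are also known to be expressed, were mostly not called. Meningeal fibroblasts express Slc22a6 and Slc22a8. Of 13 of their markers the authors' deposited table calls 2 higher in cortex, Dcn and Lum, and none lower, with a median of 0.24 and a summed level that went from 269 to 309 FPKM. In subcortex 1 fell, Crabp2, from 17.0 to 9.94 FPKM, with a median of 0.13 and summed levels of 469 and 457. Of choroid plexus markers none of 8 tested was called in cortex (median -0.10) and 1 of 10 rose in subcortex, Slc4a5, from 0.602 to 1.28 FPKM (median 0.37). Ttr, the thyroxine-binding protein that choroid plexus secretes, was at 504 and 485 FPKM in cortex and at 484 and 719 in subcortex, called in neither. Astrocyte and radial glia markers numbered 3 risen and 2 fallen of 11 in cortex (median 0.15), among them Vim, from 99.9 to 171 FPKM, and Slc1a2, a glutamate transporter, from 25.1 to 15.9. None of these 11 was called in subcortex (median 0.12).

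Of 15 markers of microglia and macrophages, cells that also express Slco2b1, the authors' deposited table calls 10 higher in cortex and none lower, with a median of 0.75. Tyrobp, an adaptor of myeloid receptors, rose from 8.59 to 27.5 FPKM, and their summed level went from 84.0 to 181. In subcortex 1 of 14 tested rose, Cd163, a scavenger receptor, from 0.404 to 1.15 FPKM (median 0.02, summed levels 101 and 142). Pericyte markers numbered 1 risen and 3 fallen of 10 in cortex (median -0.05), and 1 risen of 9 tested in subcortex (median 0.33), Pdgfrb, from 3.73 to 5.96 FPKM. The part of these cell types in the members' values was not tested.

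**Figure D3:**
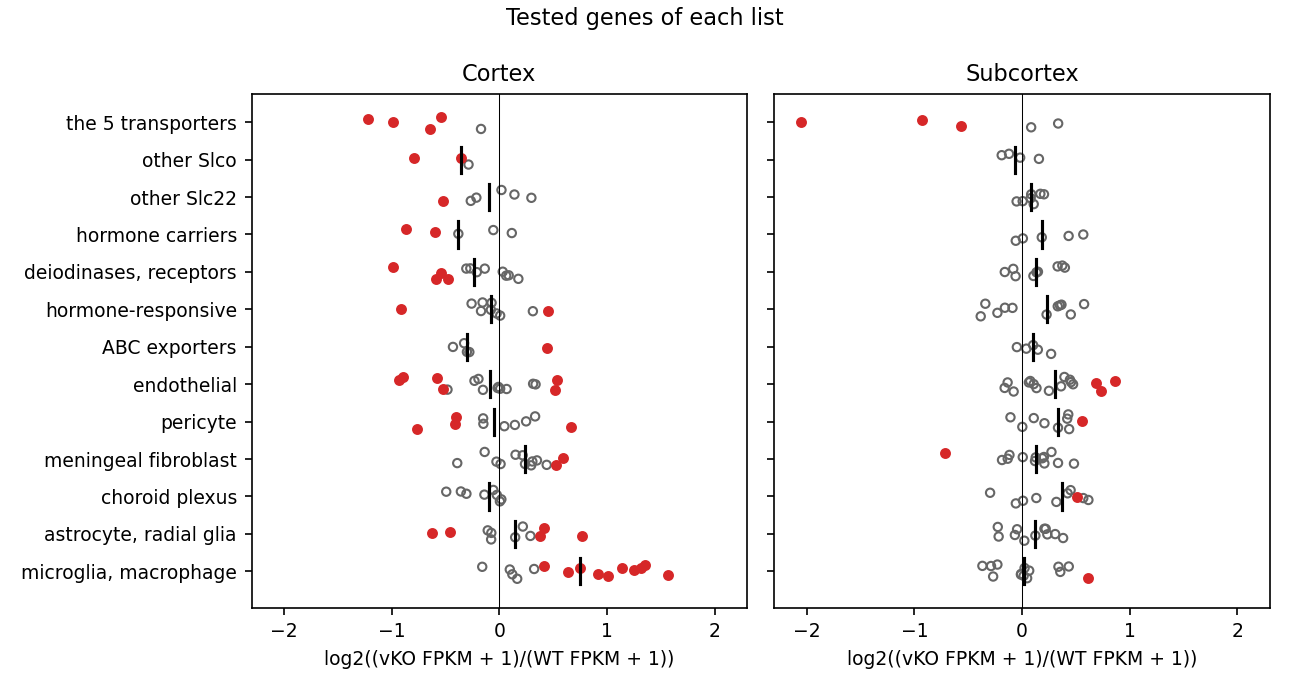
Log2 ratio of vKO over WT (1 added to each FPKM) for each tested gene of the transporters and of 12 lists, in cortex (left) and subcortex (right). Filled points were called in the authors' deposited table, open points were not, and bars are list medians. In subcortex Slco1c1 and Slc22a8 lie below every point of the lists, and Slc22a6 below all but that of Crabp2.

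Among other carriers of thyroid hormone, calls were made in cortex and none in subcortex. Of 5 tested, the authors' deposited table calls 2 lower in cortex and none higher, with a median of -0.38. Slc7a8, an amino acid exchanger that also carries thyroid hormone, fell from 4.36 to 1.94 FPKM (-0.87). Slc7a5, which shares this activity, had 23.6 FPKM (WT) and 17.9 (vKO) in cortex and was not called, the authors' deposited table listing a q-value of 0.0530. In subcortex none of 5 was called (median 0.18): Slc7a8 had 2.14 FPKM (WT) and 2.02 (vKO), where Slco1c1 stood at 17.0% of WT. Slc7a5 had 18.9 FPKM (WT) and 25.9 (vKO) in subcortex, a log2 ratio of 0.43 beside -0.38 in cortex. Whether the tissues differ in these changes was not tested.

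Enzymes and receptors of the pathway were next. Of 12 tested deiodinases, binding proteins, receptors and co-regulators the authors' deposited table calls 4 lower in cortex and none higher, with a median of -0.24. Thrb, the beta receptor of thyroid hormone, fell from 1.68 to 0.924 FPKM (-0.48), its partner Rxrg from 14.4 to 9.61 (-0.54), and the co-regulator Ncoa1 from 29.3 to 19.1 (-0.59). Thra, the alpha receptor and the most abundant of the list, was at 216 and 221 FPKM. Dio2, the deiodinase of astrocytes that makes triiodothyronine, was at 7.14 and 5.76 FPKM in cortex and not called, and too low for the test in subcortex at 0.273 and 0.323. In subcortex none of 9 tested was called (median 0.13).

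Genes known to respond to thyroid hormone in brain were mostly not called. The authors' deposited table calls 1 of 10 tested lower and 1 higher in cortex, with a median of -0.07. Reln, an extracellular guide of neuronal migration, fell from 50.5 to 26.4 FPKM (-0.91), and Aldh1a1, an enzyme of retinoic acid synthesis, rose from 0.637 to 1.25 (0.46). In subcortex none of 11 tested was called, and the median of 0.23 turned to -0.0894 over the genes with an FPKM of at least 1, tested or not. Hr and Klf9, a co-repressor and a transcription factor that the hormone induces, picked after their values were seen, were not called: Hr had 1.82 and 1.36 FPKM in cortex, and Klf9 had 5.35 and 6.89 in cortex and 3.20 and 5.26 in subcortex.

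Few of the other family members were expressed. Of the 12 other Slco genes 3 were tested in cortex and 4 in subcortex. The authors' deposited table calls 2 of them lower in cortex, Slco2a1, a prostaglandin carrier of vessels, from 1.72 to 0.572 FPKM (-0.79) and Slco5a1 from 12.1 to 9.28 (-0.35), with a median of -0.35. In subcortex none was called (median -0.07), and Slco2a1 stood at 0.883 and 1.10 FPKM. Of the 23 other Slc22 genes 6 were tested in cortex, where the authors' deposited table calls Slc22a23 lower, from 17.4 to 11.8 FPKM (-0.52), and none higher (median -0.10). In subcortex none of 7 tested was called (median 0.08). Of 5 tested ABC exporters with overlapping substrates, the authors' deposited table calls Abcg2, an efflux pump of brain capillaries, higher in cortex, from 8.97 to 12.6 FPKM (0.45), and none lower, while the list's median was -0.30. In subcortex none of 5 was called (median 0.10).

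Ratios fell with transcript length in cortex and not in subcortex. Over deciles of transcript length the median log2 ratio of tested genes went from 0.36 in the shortest to -0.35 in the longest in cortex, where 46.6% of the longest decile was called lower in the authors' deposited table, and in subcortex all deciles lay between -0.01 and 0.00. The members' longest coding transcripts have 3178 to 4381 bases and fall in deciles 5 to 8, where the cortex medians run from 0.04 to -0.12. With the decile's median subtracted the cortex ratios were -1.03 for Slco1c1, -1.20 for Slc22a8, -0.58 for Slc22a6, -0.42 for Slco2b1 and -0.11 for Slco1a4. The same step moved Slco5a1 from -0.35 to -0.00, Slco2a1 to -0.44, Ncoa1 to -0.24 and Thrb to -0.27, whose transcripts are longer, and the list median of enzymes and receptors from -0.24 to -0.08. The cortex medians of the other Slco genes moved from -0.35 to -0.16, of other Slc22 genes from -0.10 to -0.04, of ABC exporters from -0.30 to -0.12, of hormone carriers from -0.38 to -0.42 and of hormone-responsive genes from -0.07 to -0.04. Among the marker lists, endothelial genes moved from -0.08 to -0.01, choroid plexus genes from -0.10 to -0.27 and astrocyte genes from 0.15 to 0.06. Slc7a8 was at -0.81.

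**Figure D4:**
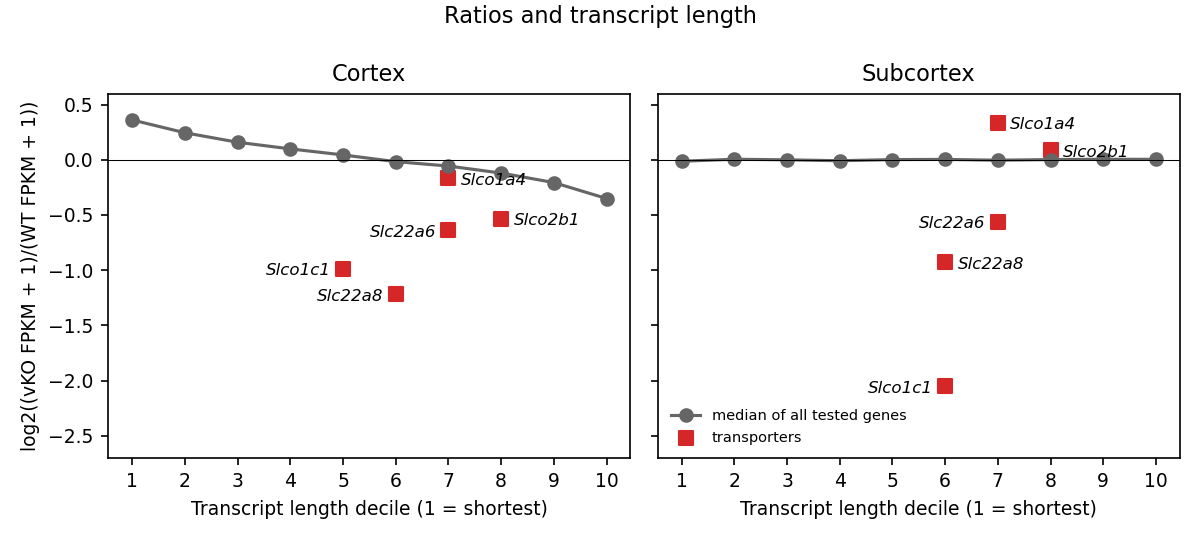
Median log2 ratio of all tested genes (1 added to each FPKM) in each decile of transcript length (grey line) and the 5 transporters (squares) in their deciles, for cortex and subcortex. The grey line falls from 0.36 to -0.35 in cortex and is flat in subcortex, and the transporters sit in deciles 5 to 8.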

How the data were processed

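RNA of whole cortex and subcortex was extracted with TRIzol and RNeasy columns and made into stranded total RNA libraries, per the labels' protocols. The submitters' processing notes name build mm10, HISAT2 2.0.1, Cufflinks 2.2.1 and Cuffdiff, in no stated order. Which gene annotation was used, and the version of Cuffdiff, are not given in the sources used here. The authors deposited 1 table per tissue with an FPKM per gene and group, per the file headers, and the letters W and M of the groups were read as WT and vKO. P-values and q-values come from the authors' deposited comparison, and their test statistic, a score per the file headers, was not used. The lowest p-value listed is 5e-05. Depth is unknown. The labels do not say whether replicates are separate animals.

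Log2 ratios were recomputed from FPKM, since the deposited fold column held error text in some cells, with a pseudocount of 1 FPKM (pandas 2.3.3). Calls are the authors' q-values under 0.05, among genes they marked as tested. No test was run here. Transcript lengths come from GENCODE M21, for 99% of tested genes. Members and the 12 lists were chosen with earlier results of these data known. Named are all members, up to 4 called genes per list and tissue by lowest q-value (otherwise the 2 highest in FPKM), and 3 nearest profiles per member, leaving out predicted, sex-linked and member genes. Some genes that the rule names are not reported here. Other genes, the regional markers, the ratios to each endothelial gene (first tried against Cdh5 and Pecam1 only, then against the whole list), the length deciles of the lists, the motif, the neighbours and the shared 50-base words were chosen after the data were seen. Counting steps were tested on simulated data.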

Additional observations from a re-analysis of the deposited data

How the results depend on the processing

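The files used here give 1 value per group, so neither a spread nor values without single replicates could be computed. No paired analysis was possible because the columns carry no replicate numbers. The count of members called lower was the same with a 1.5-fold minimum in both tissues. At a q-value under 0.01 it stayed at 4 in cortex and was 0 in subcortex, where the lowest q-value listed is 0.0104, so that every subcortex count is 0 there, those of endothelial, meningeal, choroid plexus, pericyte and macrophage genes included. In cortex that threshold left 1 lower Slco gene, 0 higher hormone-responsive genes, 0 higher ABC exporters, 1 higher endothelial gene, 1 higher meningeal gene, 1 lower and 1 higher astrocyte gene, and 1 lower pericyte gene. With both tables scaled to one median, the log2 differences of cortex over subcortex in WT and vKO were 0.41 and 1.48 for Slco1c1, 0.18 and -0.33 for Slco1a4, 0.25 and -0.38 for Slco2b1, 0.58 and 0.50 for Slc22a6, and 0.22 and -0.0796 for Slc22a8. A pseudocount of 0.1 or none moved all 10 member ratios away from 0, to -1.89 for Slc22a8 in cortex and -2.56 for Slco1c1 in subcortex with none. In subcortex Slco2b1 changed sign to -0.22 once the endothelial median was subtracted and to -0.27 as the median over ratios to endothelial genes, a setting added after seeing the data. Slco1a4 there was 0.03 with the endothelial median subtracted. The median of hormone-responsive genes in subcortex changed sign, to -0.0894, over genes with an FPKM of at least 1, tested or not. Subtracting the length decile's median changed the sign of none of the 5 members or of the 12 lists.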

Other observations

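Of the 13167 genes tested in both tables, 12 were called lower in both by the authors' deposited tables, and 3 of these are transporters described above. The transporters were chosen partly for being changed in both tables, so nothing is read from that count. The amino acid transporter gene Slc38a5 went from 6.79 to 0.695 FPKM in cortex and from 4.21 to 1.94 in subcortex. The endocytic receptor gene Ly75 went from 1.89 to 0.196 and from 1.32 to 0.605 FPKM, and Col4a6, a chain of basement membrane collagen, from 1.43 to 0.717 and from 1.18 to 0.580. Glra2, a glycine receptor subunit, went from 28.4 to 19.7 and from 37.1 to 18.4 FPKM. The others were Cdr1, the pseudogenes Nlrp5-ps and Slc2a4rg-ps, and the Y-linked Eif2s3y and Uty. These genes were picked after their values were seen.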
